A study of Mus musculus with 2 samples.

Results

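The resident-type Folr2 Fcrls macrophages described here were 854 of 8544 myeloid cells, drawn from 15373 barcodes of 2 single-cell RNA libraries of mouse colon. They were chosen by the summed level of Fcrls, Folr2 and Cbr2, as the highest 10% of the myeloid cells of both libraries pooled, and their values of these genes are therefore a description and not a result. A barcode counted as myeloid with at least 1000 UMIs (unique molecular identifiers, 1 per captured transcript), at least 15 UMIs of Csf1r, C1qa, C1qb, C1qc and Cd68 per 10000 (CP10K), and at most 1 UMI of Cd3d, Cd3e and Cd3g. One library carries the genotype label RUNX3 ko (KO below) and the other RUNX3 wt (WT). The series set out to follow natural killer cell infiltration of colorectal cancer in mice without RUNX3, a transcription factor of cytotoxic lymphocytes and myeloid cells, and both libraries come from that tumour work. The Runx3 allele, the tumour model, the strain, the age and the number of animals per library were not stated in the labels.

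Resident macrophages of the gut and other tissues clear dying cells and debris through scavenger and bridging receptors, store and recycle lipid and iron, and release growth factors. They are renewed locally or by monocytes that mature in the tissue, and the transcription factor MAF is part of their identity programme. Folr2 encodes folate receptor beta, Fcrls an Fc receptor-like scavenger receptor known in mouse from microglia and other resident macrophages, and Cbr2 a carbonyl reductase. Stab1 encodes stabilin-1, a clearance receptor, Pf4 the chemokine CXCL4, made by platelets and some macrophages, and Gas6 the bridging ligand between dying cells and the MERTK family of receptors.

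The promoters of the genes that define these cells are shown because the series is about a RUNX factor and because Maf was among the genes most enriched in the members. All 6 marker genes matched the RefSeq promoter table (build GRCm38.p6, 250 bases before to 50 bases after the start of transcription, gene strand). Capitals mark matches on either strand to a RUNX motif (TGTGGT), a MAF half-site (TGCTGA) or a PU.1 core (GAGGAA), the last being the motif of the myeloid factor encoded by Spi1.
Fcrls, chr3:87263475-87263774, minus strand: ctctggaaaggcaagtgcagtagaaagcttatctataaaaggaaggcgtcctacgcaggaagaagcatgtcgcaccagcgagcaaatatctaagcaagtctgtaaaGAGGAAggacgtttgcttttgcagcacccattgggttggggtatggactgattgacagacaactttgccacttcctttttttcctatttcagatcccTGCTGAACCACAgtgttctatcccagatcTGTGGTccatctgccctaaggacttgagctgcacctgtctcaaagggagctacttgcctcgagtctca
Folr2, upstream start, chr7:101857141-101857440, minus strand: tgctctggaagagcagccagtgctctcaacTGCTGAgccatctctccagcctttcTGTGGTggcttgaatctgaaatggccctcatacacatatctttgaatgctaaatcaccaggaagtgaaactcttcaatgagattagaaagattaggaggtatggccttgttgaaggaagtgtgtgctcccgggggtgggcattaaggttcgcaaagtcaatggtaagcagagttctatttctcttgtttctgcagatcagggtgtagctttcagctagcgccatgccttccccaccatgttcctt
Cbr2, chr11:120731972-120732271, minus strand: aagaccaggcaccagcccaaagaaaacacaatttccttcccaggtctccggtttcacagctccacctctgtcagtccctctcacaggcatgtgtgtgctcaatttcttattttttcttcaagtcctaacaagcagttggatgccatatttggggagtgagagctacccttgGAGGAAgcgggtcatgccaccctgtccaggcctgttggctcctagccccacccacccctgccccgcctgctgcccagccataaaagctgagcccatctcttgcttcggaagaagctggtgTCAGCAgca
Stab1, chr14:31168592-31168891, minus strand: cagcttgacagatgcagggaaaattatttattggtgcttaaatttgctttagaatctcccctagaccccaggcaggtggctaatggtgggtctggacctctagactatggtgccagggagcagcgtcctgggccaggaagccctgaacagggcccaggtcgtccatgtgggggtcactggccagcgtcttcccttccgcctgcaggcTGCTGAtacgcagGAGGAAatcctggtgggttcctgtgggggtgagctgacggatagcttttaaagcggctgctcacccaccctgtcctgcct
The Fcrls window held 2 RUNX matches, which begin 41 and 18 bases before the start, a MAF half-site that directly adjoins the first of them, and 1 PU.1 match. The upstream Folr2 window held 1 RUNX match and 1 MAF half-site, and the second Folr2 window held 1 MAF half-site. Cbr2 and Stab1 each had 1 MAF half-site and 1 PU.1 match, Pf4 had 1 PU.1 match, and no match of these letters lay in the Gas6 window. No 2 matches overlapped. Among 32851 RefSeq promoters of the same length, 16.8% held the RUNX letters, 19.5% the MAF letters and 28.3% the PU.1 letters, and a match here describes letters and not binding.

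The library labelled KO held 6573 barcodes and 62465176 UMIs, and the WT library 8800 barcodes and 85367638 UMIs. The members had a median of 9771 UMIs in KO and 7932.5 in WT, and other myeloid cells had 11129 in KO and 9468 in WT. The libraries shared 17 barcode sequences, none of them held by members in both. With 1 library per genotype and cells that are not replicates, no difference was tested, and every interval below is a 95% interval that covers counting error only.

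Some properties of the libraries stood apart from their labels. Runx3 (chromosome 4, 135120645 to 135177990 in GRCm38) was present in the library labelled KO, at 138 CPM (UMIs per 1000000) in its members, against 141 CPM in WT members. In other myeloid cells it was at 177 CPM in KO and 224 CPM in WT. A level near that of WT leaves the KO label unsettled, since it is not known here which part of the gene was removed. The libraries also differed in sex type. Barcodes with Xist and no Y-linked transcript (female-type) made up 1877 of the 3287 myeloid cells of the library labelled KO and none of the 5257 myeloid cells of the WT library. Barcodes with a transcript of Ddx3y, Uty, Kdm5d or Eif2s3y and no Xist (male-type) numbered 841 in KO and 4370 in WT. The KO library also held 284 myeloid cells with both kinds of transcript and 285 with neither.

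Lyz2, which encodes the macrophage lysozyme, split the library labelled KO along the same line. Among all myeloid cells Lyz2 reached 6910 CPM in the female-type and 142 CPM in the male-type cells of KO, against 9093 CPM in WT male-type cells. In 98.8% of KO male-type myeloid cells it stayed under 10 CP10K, against 8.15% of the KO female-type and 2.40% of the WT male-type. The library labelled KO thus held at least 2 kinds of myeloid cells that differ in sex type and in Lyz2, and the main comparisons of the libraries below are also given by sex type. The labels do not say which genotype each sex type had, so it is not known whether the KO values, taken mostly from female-type members, come from 1 genotype.

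The members made up a larger share of the myeloid cells in the library labelled KO. They were 602 of 3287 myeloid cells in KO, or 18.3% (exact binomial interval 17.0% to 19.7%), and 252 of 5257 in WT, or 4.79% (4.23% to 5.41%). The share was 3.82 times as high in KO (3.32 to 4.40). Myeloid cells as a whole were 61.4% of the barcodes in KO and 61.0% in WT, so the difference lay within the myeloid cells. Because the members are a fixed share of the pooled myeloid cells, more of them in one library leaves fewer for the other.

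**Figure D1:**
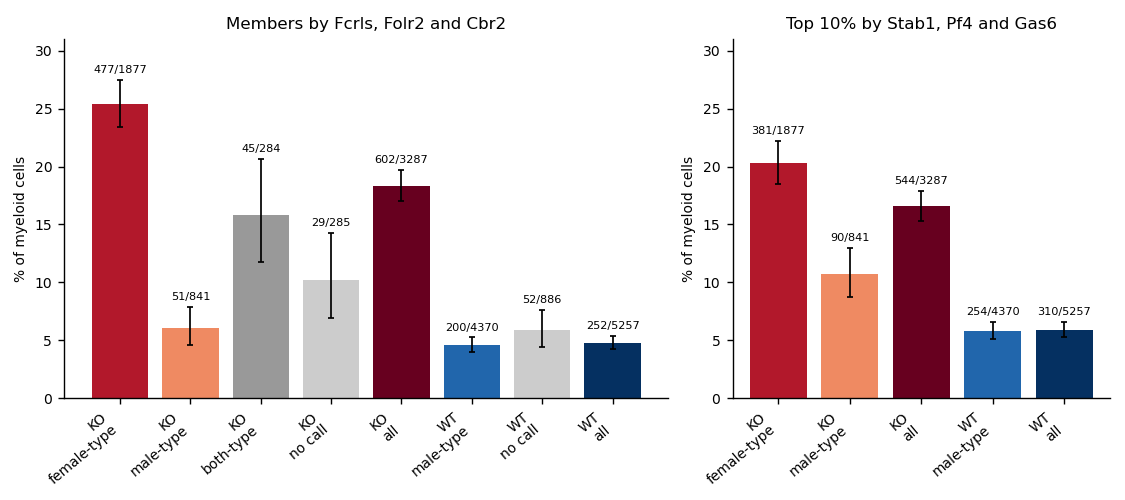
Share of myeloid cells, in percent, that were members (left) or in the top 10% by Stab1, Pf4 and Gas6 (right), by library and sex type, with the cell counts above each bar and 95% exact binomial intervals as error bars. The KO female-type cells stand at 25.4% on the left, while the KO male-type cells at 6.06% lie close to the WT male-type cells at 4.58%.

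The excess sat in KO female-type cells. Members were 477 of 1877 KO female-type myeloid cells (25.4%, 23.5% to 27.4%), 51 of 841 KO male-type cells (6.06%, 4.55% to 7.90%) and 200 of 4370 WT male-type cells (4.58%, 3.98% to 5.24%). The share was 1.33 times as high in KO male-type as in WT male-type cells (0.983 to 1.79), an interval that includes 1, and 4.19 times as high in KO female-type as in KO male-type cells (3.18 to 5.53). Members of both types and of no call stood between, at 15.8% and 10.2% of their KO myeloid cells. Female-type cells were 79.2% of the KO members and 52.1% of the other KO myeloid cells. Genotype label and sex type cannot be told apart for the difference between the whole libraries.

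The split was present at each depth. Between 5000 and 10000 UMIs the members were 31.6% of KO female-type, 8.23% of KO male-type and 5.64% of WT male-type myeloid cells, and between 10000 and 20000 UMIs they were 23.4%, 5.13% and 3.22% of the same 3 kinds. The order of the 3 was the same in the bins from 1000 to 5000 UMIs and above 20000 UMIs, but the intervals of the 2 male-type shares overlapped in all 4 bins, with 7.78% in KO and 7.59% in WT in the lowest. Membership also went with Lyz2 among the KO female-type cells. Members were 9 of 153 KO female-type myeloid cells with Lyz2 under 10 CP10K (5.88%) and 468 of 1724 with more (27.1%). In the same classes of WT male-type cells they were 2 of 105 (1.90%) and 198 of 4265 (4.64%), the first a small count. Among KO cells with no sex call they were 13 of 199 and 16 of 86. The WT cells with no call ran the other way, with 4 of 38 and 48 of 848. Among KO cells of both types they were 4 of 100 and 41 of 184. Under 10 CP10K the members were 51 of 831 KO male-type cells (6.14%), near the 5.88% of KO female-type cells in that class. Only 10 of the 841 KO male-type cells reached 10 CP10K, and none of these was a member. The KO sex types thus cannot be compared at the higher Lyz2 level, and there sex type and Lyz2 level cannot be told apart.

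The rule rests mostly on Fcrls. A UMI of Fcrls was found in 98.2% of KO members and 92.9% of WT members, of Cbr2 in 61.5% and 65.9%, and of Folr2 in 49.5% and 40.1%. All 3 genes were found in 206 KO members and 68 WT members, while 147 KO members and 63 WT members held Fcrls alone. The summed level reached a median of 10.8 CP10K in KO members and 8.27 CP10K in WT members. The last member inside the limit had 5.37 CP10K and the first cell outside 5.36 CP10K, resting on 5 and 6 UMIs of the rule genes, so the group has no gap at its edge. A single UMI carried 15 KO members and 18 WT members over the limit.

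Stab1, Pf4 and Gas6, which the rule did not use, followed it in both libraries. Stab1 reached 737 CPM (716 to 758) in members and 107 CPM in other myeloid cells of KO, and 515 CPM (484 to 546) in members and 102 CPM in other myeloid cells of WT. Pf4 stood at 1770.1 CPM in members against 513 CPM in KO, and at 1411 CPM against 334 CPM in WT. Gas6 was the most selective of the 3, at 127 CPM in members against 8.60 CPM in KO and 117 CPM against 10.1 CPM in WT. In T cells, which should lack it, Stab1 was found in 12.3% of KO and 5.18% of WT cells, against 91.4% of KO members and 79.8% of WT members. Thinned to 1000 UMIs per cell, Stab1 was found in 48.8% of KO members and 34.9% of WT members, and in 10.8% and 10.2% of other myeloid cells.

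Stab1 and Gas6 were highest in the cells with all 3 rule genes. Stab1 was at 881 CPM in KO members with all 3, 662 CPM in those with 2 and 549 CPM in those with 1, and at 683, 430 and 452 CPM in the WT members with 3, 2 and 1. Gas6 was at 166, 108 and 70.0 CPM in KO and 201, 80.0 and 64.2 CPM in WT, in the same order. Pf4 was highest with 2 rule genes in KO, at 1809, 1896 and 1378 CPM with 3, 2 and 1, and with 3 in WT, at 1872, 1246 and 1011 CPM. The cells with 1 rule gene were also shallower, with medians of 6745 UMIs in KO and 3416 in WT, and the part of depth in their levels was not tested. A second selection by Stab1, Pf4 and Gas6 in place of the rule genes held 53.8% of the KO members and 39.7% of the WT members. That selection was 16.6% of KO and 5.90% of WT myeloid cells, and by sex type 20.3% of KO female-type, 10.7% of KO male-type and 5.81% of WT male-type cells, so that here the KO male-type share lay above the WT male-type share, with intervals that did not overlap.

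Along the summed score the markers changed by degrees. In myeloid cells with none of the rule genes Stab1 was at 76.5 CPM in KO and 86.1 CPM in WT, in cells above 0 but outside the group at 133 CPM in KO and 134 CPM in WT, and in the highest 2.5% at 1212 CPM in KO and 785 CPM in WT. H2-Aa, an MHC class II chain, ran the other way, with 5875 CPM in KO and 6751 CPM in WT at a score of 0, and 554 CPM in KO and 1294 CPM in WT in the highest 2.5%. Ly6c2, a marker of freshly recruited monocytes, was at 55.9 CPM in KO and 74.1 CPM in WT at a score of 0, and at 1.84 CPM in KO and 15.4 CPM in WT in the highest 2.5%. Ccr2, another monocyte marker, fell less. It was at 393 CPM in KO and 435 CPM in WT at a score of 0, and at 160 and 326 CPM in the highest 2.5%. A UMI of Ccr2 was found in 56.5% of KO and 59.1% of WT members.

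**Figure D2:**
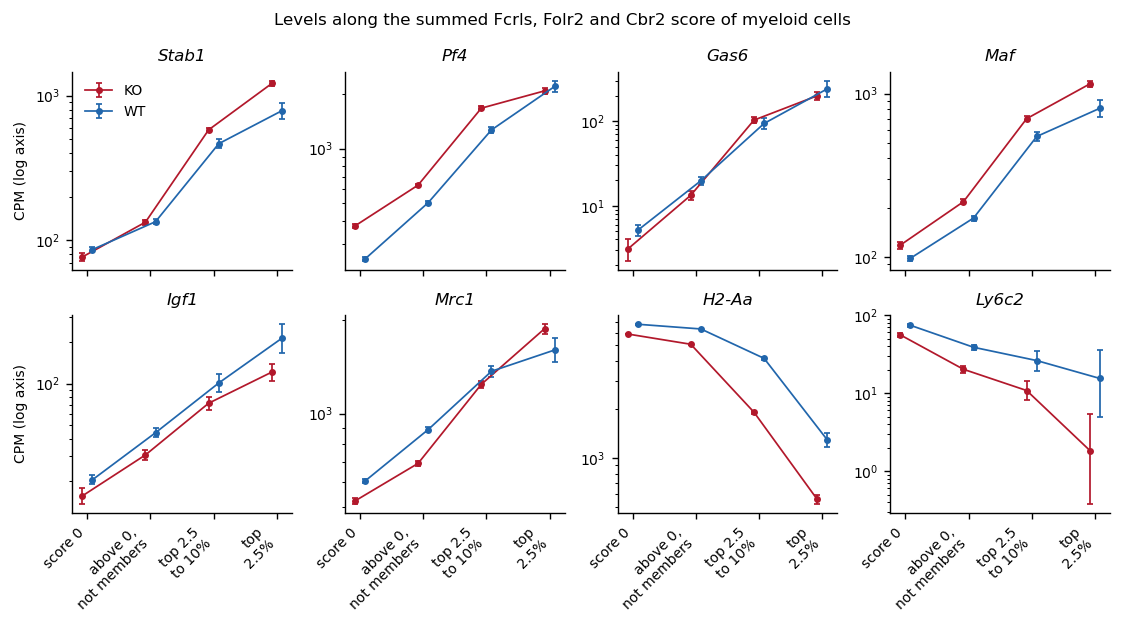
Summed level of 8 genes in CPM (log axis) in 4 classes of myeloid cells along the summed Fcrls, Folr2 and Cbr2 level, for KO (red) and WT (blue), with 95% Poisson intervals. Stab1, Pf4, Gas6, Maf, Igf1 and Mrc1 are higher toward the top 2.5% in both libraries, and H2-Aa and Ly6c2 are lower.

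Several genes often used for resident macrophages elsewhere were rare. Lyve1, the hyaluronan receptor of perivascular macrophages, had 27 UMIs over all KO members and 12 over the WT members. Timd4, a phosphatidylserine receptor of long-lived macrophages, had 3 UMIs in KO and none in WT, Vsig4 had 19 in KO and 1 in WT, and the haemoglobin receptor gene Cd163 had 55 in KO and 3 in WT. Slc40a1, the iron exporter ferroportin, had 6 UMIs in KO and 2 in WT, and Cd209f had none in either. The members therefore carry the Fcrls, Stab1, Gas6 and Maf side of a resident profile and little of the Lyve1, Timd4, Cd163 and Vsig4 side.

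Marker sums of T, epithelial and endothelial cells were low in the members, and those of some other cell types were above their sums in other myeloid cells. The 7 T cell markers summed to 7.64 CPM in KO members and 10.5 CPM in WT members, low in part because the rule limits Cd3 transcripts, and the 7 epithelial markers to 11.6 and 12.9 CPM. The endothelial markers summed to 15.4 CPM in KO and 15.3 CPM in WT. The natural killer cell markers summed to 40.03 CPM in members and 14.8 CPM in other myeloid cells of KO, and to 72.4 and 42.0 CPM in those of WT. The neutrophil markers summed to 176 CPM in members and 141 CPM in other myeloid cells of KO, and to 31.2 and 37.1 CPM in those of WT. The fibroblast markers summed to 42.0 CPM in members and 175 CPM in other myeloid cells of KO, and to 220.1 and 123 CPM in those of WT. Of the platelet markers, Ppbp had 142 UMIs in KO members, 69.7% of them in 1 cell, and 7 in WT members. No UMI of the platelet markers Gp9 and Gp1bb was found in members of either library. The part of the natural killer, neutrophil and fibroblast RNA in other results was not tested, apart from the values without such cells given below.

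Compared with other myeloid cells, the members had more Maf and less of many antigen presentation and inflammatory genes. Of 9469 genes, 338 (3.57%) were at least 1.5-fold higher in members in both libraries and 328 (3.46%) at least 1.5-fold lower, with log2 ratios taken after adding 5 CPM. The median log2 ratio over all genes was 0.14 in KO and 0.078 in WT, and with ratios taken relative to that median 236 genes were higher and 428 lower. Maf, the transcription factor, was at 813 CPM in members and 172 CPM in other myeloid cells of KO, and at 587 and 123 CPM in the same cells of WT, a log2 ratio of 2.21 in each library.

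Other genes among the 20 highest ratios have varied roles. Slco2b1, an organic anion transporter, had log2 ratios of members over other myeloid cells of 2.58 in KO and 2.48 in WT. F13a1, the A subunit of coagulation factor XIII, reached 2.19 and 2.84, and Selenop, the selenium carrier, 1.98 and 1.65. Rapgef5, an activator of Rap GTPases, had 2.58 and 2.20, and the microRNA host gene Mir99ahg 2.06 and 2.59. The lowest of the ratios just given was that of Selenop in WT. The ubiquitin ligase gene Wwp1, the endocytic scaffold gene Itsn1, the receptor gene Cd93, the sialic acid lyase gene Npl, the endosomal exchanger gene Slc9a9 and the lysophospholipid receptor gene Gpr34 had ratios between 1.68 and 2.02.

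**Figure D3:**
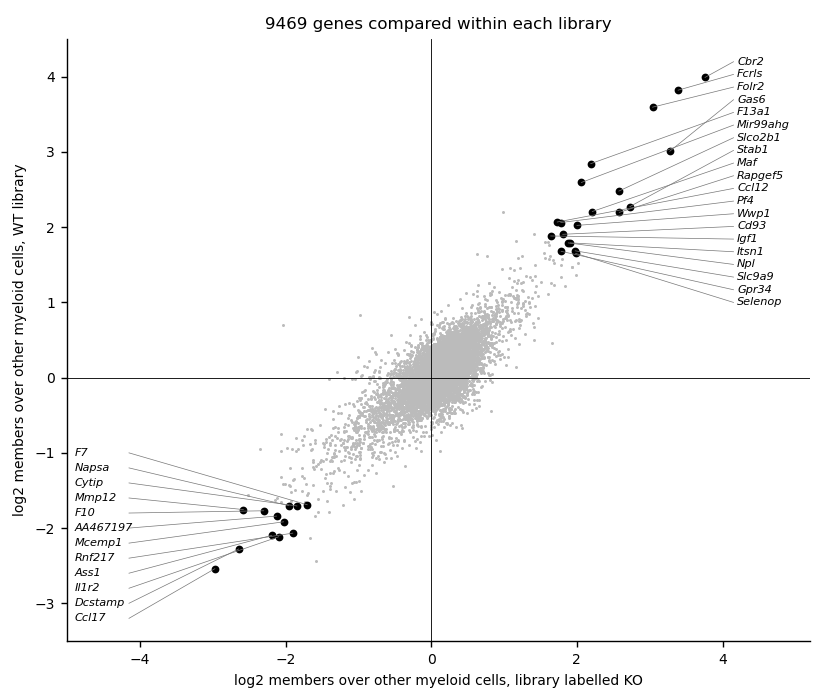
Log2 ratio of members over other myeloid cells (5 CPM added) within KO (horizontal axis) and within WT (vertical axis), 1 grey point per gene and black points for the named genes. Gas6, Slco2b1, Stab1, Maf and F13a1 lie at the upper right together with the rule genes Cbr2, Fcrls and Folr2, and Ccl17, Dcstamp, Ass1 and Mmp12 at the lower left.

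Of 13 scavenger and uptake receptors measured, 3 were at least 1.5-fold higher in members of both libraries and 2 lower, with medians of 0.16 in KO and 0.44 in WT, and of 14 genes of apoptotic cell clearance 2 were higher and 2 lower. Over all 9469 genes 3.57% were higher and 3.46% lower. Mrc1, the mannose receptor, was at 1402 CPM in members and 613 CPM in other myeloid cells of KO, and at 1406 and 701 CPM in WT. Siglec1, a sialic acid lectin, had log2 ratios of 1.64 in KO and 1.26 in WT. Of the genes for the MERTK family of Gas6 receptors, Mertk had 1.20 and 0.75, while Axl had -0.73 and -0.55. The members thus held Gas6 at a raised level, and its receptor genes were mixed, with Mertk raised and Axl lowered. Apoe, the apolipoprotein of lipid efflux, was at 10887 CPM in KO members and 10206 CPM in WT members, with ratios of 0.78 and 0.81. The lysosomal proteases Ctsb and Ctsd had ratios between 1.01 and 1.11.

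Of 15 cytokine receptors measured, 2 were at least 1.5-fold higher in members of both libraries and 1 lower, and of 18 growth factor and matrix genes 3 were higher and 5 lower, with medians of -0.46 in KO and -0.18 in WT. The shares over all 9469 genes were 3.57% higher and 3.46% lower. Cx3cr1, the fractalkine receptor, had log2 ratios of members over other myeloid cells of 1.34 in KO and 1.00 in WT, and the TGF beta receptor gene Tgfbr2 1.18 and 1.10. Igf1, insulin-like growth factor 1, had 1.64 and 1.88. The monocyte-attracting chemokines Ccl12, Ccl7 and Ccl2 had 1.73, 1.16 and 0.62 in KO and 2.07, 1.82 and 1.15 in WT. Of 14 CC and CXC chemokine genes measured, 6 were at least 1.5-fold higher in both libraries and 3 lower.

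Antigen presentation, inflammation and hypoxia genes were lower in members. Of 13 MHC class II presentation genes, 10 were at least 1.5-fold lower in members of both libraries and none higher, against 3.46% lower and 3.57% higher over all 9469 genes. Cd74, the invariant chain, was at 3983 CPM in members and 12350.0 CPM in other myeloid cells of KO, and at 9510.3 and 15420.0 CPM in WT. Of 20 inflammatory mediators 10 were lower and none higher, Il1b among them with log2 ratios of -1.70 in KO and -1.56 in WT. Of 17 hypoxia and glycolysis genes 7 were lower and none higher, and of 5 osteoclast markers 4 were lower. Ccl17, a chemokine of dendritic cells, had the lowest ratios of all named genes, -2.97 in KO and -2.54 in WT, followed by Dcstamp, a cell fusion protein, with -2.64 and -2.28. The urea cycle gene Ass1, the decoy receptor gene Il1r2, the coagulation factor gene F10 and the elastase gene Mmp12 were also among the 12 lowest, with Mmp12 at -2.58 and -1.75.

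Some other myeloid profiles were rarer in members than in other myeloid cells, and others were not. A selection of the same size by Ear2, Asgr2 and Ccl17 held 0.997% of members and 7.75% of other myeloid cells in KO, and 4.76% and 12.5% in WT. One by Ly6c2 held 2.66% of members and 8.42% of other myeloid cells in KO, and 6.35% and 11.9% in WT, and one by Arg1 2.66% and 11.3% in KO and 3.17% and 10.5% in WT. The Cxcl3 selection held 9.30% and 15.3% in KO and 5.56% and 7.47% in WT, and the Gbp and Ly6i selection 5.15% and 9.76% in KO and 7.14% and 10.8% in WT. The interferon-induced Ifit and Rsad2 selection held 4.82% and 9.98% in KO, but 12.7% of members (8.85% to 17.5%) and 10.5% of other myeloid cells in WT. A selection by cell cycle genes held 15.3% of members (12.5% to 18.4%) and 10.5% of other myeloid cells in KO, and 8.73% (5.55% to 12.9%) and 9.13% in WT. By sex type that share was 16.6% of KO female-type (13.3% to 20.2%), 9.80% of KO male-type (3.26% to 21.4%) and 9.50% of WT male-type members (5.82% to 14.4%). The KO male-type share rests on 5 of 51 cells, so its order against the others is not settled.

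Within the members, the library labelled KO differed from WT in antigen presentation, interferon, hypoxia, chemokine and cell cycle genes. Of 9426 genes, 337 (3.58%) were at least 1.5-fold higher in KO members and 275 (2.92%) at least 1.5-fold lower, 54.1% had a ratio above 0, and the median log2 ratio was 0.026. Of 8664 genes measured in both members and other myeloid cells, 50 passed 1.5-fold in the same direction in both and none in opposite directions. The markers that define the cells differed less. Stab1 had a log2 ratio of KO over WT members of 0.51, Pf4 0.33, Gas6 0.12 and Maf 0.46. The members of the libraries also differed in score, with 176 of 602 in KO and 38 of 252 in WT in the highest 2.5%. There Pf4 was at 2077 CPM in KO and 2196 CPM in WT, and Gas6 at 199 and 240 CPM, with overlapping intervals. Stab1 was at 1212 and 785 CPM there, and Maf at 1146 and 813 CPM. From 2.5% to 10% each of these genes was higher in KO, Gas6 with overlapping intervals. By sex type Stab1 was at 812 CPM in KO female-type, 462 CPM in KO male-type and 506 CPM in WT male-type members, so the higher level of Stab1 lay with the female-type cells. Pf4 was at 1686, 2341 and 1392 CPM in the same order, highest in the KO male-type members.

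**Figure D4:**
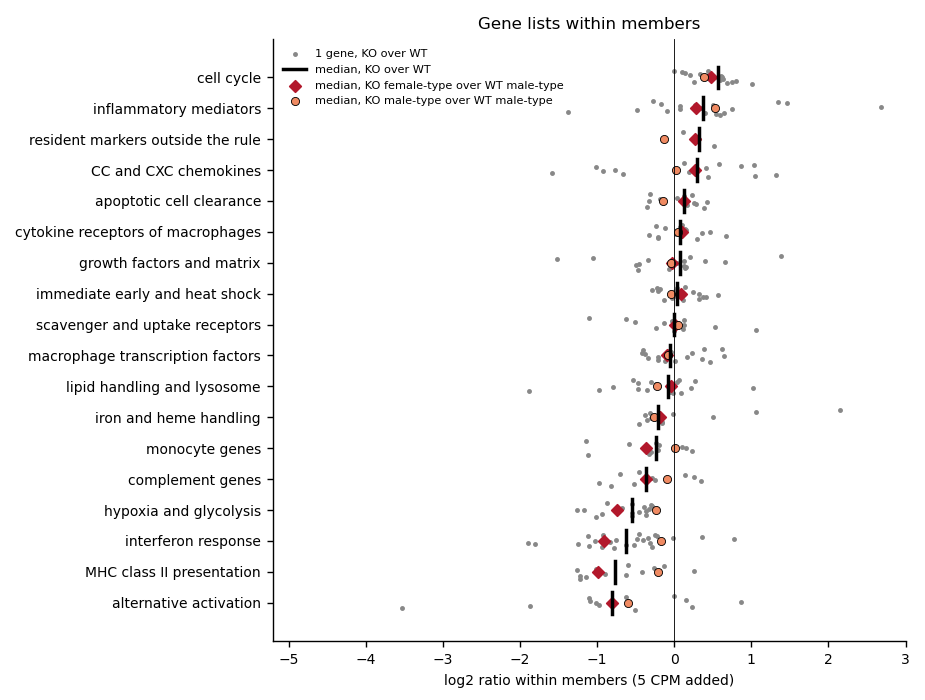
Log2 ratios within members for the genes of 18 lists, with grey points for single genes (KO over WT), black bars for the list medians, red diamonds for the medians of KO female-type over WT male-type members and orange circles for the medians of KO male-type over WT male-type members. MHC class II genes have a median of -0.77 for KO over WT, -0.99 for the diamonds and -0.21 for the circles.

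MHC class II presentation genes were lower in KO members. Of 12 genes measured, 11 had a ratio below 0 and 8 were at least 1.5-fold lower in KO members, with a median log2 ratio of -0.77, against -0.27 in other myeloid cells. H2-Aa was at 1580.5 CPM in KO members (1550.1 to 1611) and 3703 CPM in WT members (3621 to 3787), a log2 ratio of -1.23. Ciita, the master regulator of these genes, was at 31.9 CPM in KO and 69.5 CPM in WT members. Over single cells the median of H2-Aa was 3.10 CP10K in KO members (quartiles 0.965 and 17.2) and 31.8 CP10K in WT members (8.15 and 61.6). The groups overlapped, but the typical KO member had few H2-Aa transcripts.

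That difference was wider between the sex types of KO than between the male-type members of the 2 libraries. The KO sex types also differed in Lyz2 and their genotypes are not known, so these cannot be told apart. H2-Aa was at 1212 CPM in the 477 KO female-type members, 2934 CPM in the 51 KO male-type members and 3779 CPM in the 200 WT male-type members, with single-cell medians of 2.37, 21.2 and 34.3 CP10K. Cd74 was at 3061, 7738 and 9558 CPM in the same order. The median log2 ratio of the list was -0.98 for KO female-type over KO male-type members and -0.21 for KO male-type over WT male-type members. Over all 9426 genes these 2 medians were 0.060 and -0.031. In other myeloid cells H2-Aa was at 4945 CPM in KO female-type, 6299 CPM in KO male-type and 6624 CPM in WT male-type cells, so the gap between the sex types was wider in members.

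**Figure D5:**
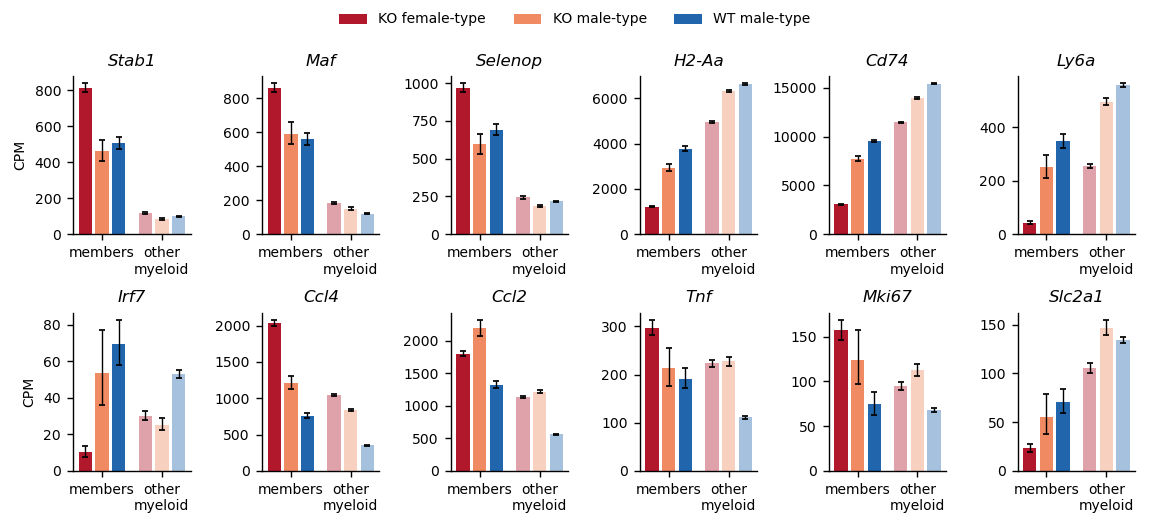
Level in CPM of 12 genes in members (full colour) and other myeloid cells (pale), by library and sex type, with 95% Poisson intervals. Stab1, Maf and Selenop are highest, and H2-Aa, Cd74, Ly6a and Irf7 lowest, in KO female-type members, while Ccl4 is higher in both kinds of KO members than in WT male-type members.

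Interferon response genes were lower in KO members in the same manner. Of 25 genes measured, 23 had a ratio below 0, 13 were at least 1.5-fold lower and 1 at least 1.5-fold higher, with a median of -0.62, against -0.26 in other myeloid cells. Irf7, an interferon regulator, was at 13.9 CPM in KO and 65.2 CPM in WT members. Oasl2, Ifi213, Ifi206, Rtp4 and Slfn1, all interferon-induced, were among the 15 lowest ratios of the genes ranked, from -1.81 for Oasl2 to -1.39 for Rtp4. The exception was Cxcl10, an interferon-induced chemokine, at 335 CPM in KO and 194 CPM in WT members. The list's median was -0.91 for KO female-type over WT male-type and -0.17 for KO male-type over WT male-type members, where 12 of 25 genes were above 0. Over all 9426 genes these 2 medians were 0.036 and -0.031. Ly6a, the surface protein Sca-1 and itself interferon-responsive, was at 41.9, 249.7 and 347 CPM in the 3 kinds of members, lowest in the KO female-type.

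Every measured hypoxia and glycolysis gene was lower in KO members. All 16 ratios were below 0, 6 of them past 1.5-fold, with a median of -0.54, against -0.12 in other myeloid cells. Slc2a1, the glucose transporter, was at 32.5 CPM in KO and 71.0 CPM in WT members, and Bnip3, a mitophagy receptor, at 53.9 and 108 CPM. By sex type Slc2a1 was at 23.3 CPM in KO female-type, 55.7 CPM in KO male-type and 71.1 CPM in WT male-type members. None of the 16 genes was higher in the KO female-type than in the KO male-type members. Over all 9426 genes 1010 were at least 1.5-fold higher and 501 at least 1.5-fold lower in that comparison, with a median of 0.060.

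The chemokine genes Ccl4 and Ccl3 were higher in KO members of both sex types. Ccl4, a chemokine that draws in lymphocytes and myeloid cells, was at 1872 CPM in KO members (1839 to 1905) and 747 CPM in WT members (710.0 to 785), and Ccl3, a closely related chemokine, at 545 and 261 CPM. Ccl4 was at 2035 CPM in KO female-type, 1214 CPM in KO male-type and 761 CPM in WT male-type members, and Ccl3 at 589, 372 and 269.6 CPM. Other myeloid cells showed the same order, with Ccl4 at 1040.2, 836 and 352 CPM. Tnf was at 298 CPM in KO female-type, 214 CPM in KO male-type and 191 CPM in WT male-type members, and the intervals of the 2 male-type values overlapped. Of 18 inflammatory mediators measured, 13 had a ratio above 0, 6 passed 1.5-fold upward and 1 downward, with a median of 0.38, against 0.84 in other myeloid cells. Slpi, a protease inhibitor, and Inhba, the activin A subunit, were at 28.6 and 24.8 CPM in KO members and 7.19 and 6.71 CPM in WT members. Of the KO UMIs 70.1% came from 5 cells for Slpi and 67.3% for Inhba. Inhba had 144 UMIs in KO female-type, 2 in KO male-type and 13 in WT male-type members, and the male-type counts are too small to order.

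Other chemokines ran in the opposite direction. Ccl6 was at 272 CPM in KO and 826 CPM in WT members, and Ccl8, a ligand of CCR8 in mouse, at 301 and 576 CPM. By sex type Ccl6 was at 237 CPM in KO female-type, 329 CPM in KO male-type and 841 CPM in WT male-type members, and Ccl8 at 271, 437 and 597 CPM. Of 14 chemokine genes measured in members, 4 were at least 1.5-fold higher in KO and 5 at least 1.5-fold lower. For KO male-type over WT male-type members 7 of the 14 had a ratio above 0, with a median of 0.022, against -0.031 over all 9426 genes. Ccl8 was lower in KO members, with a log2 ratio of -0.93, and higher in other KO myeloid cells, at 0.29, though the second did not pass 1.5-fold. Cxcl3, a ligand of CXCR2, had the highest ratio of the genes ranked, 2.68, with 801 UMIs over the KO members and 31 over the WT members. The ranking took genes with at least 50 UMIs that were found in at least 5% of the members of a library. It left out sex-linked markers, unnamed genes, antigen receptor, haemoglobin, ribosomal protein and mitochondrial genes. A UMI of Cxcl3 was found in 12.8% of KO and 5.95% of WT members, and 57.4% of the KO UMIs came from 5 cells. By sex type it was at 114 CPM in KO female-type, 226 CPM in KO male-type and 14.8 CPM in WT male-type members. The KO male-type value rests on 126 UMIs in 11.8% of 51 cells, so the order of the KO sex types is not settled.

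Cell cycle genes were higher in KO members. All 17 ratios were above 0 and 8 passed 1.5-fold, with a median of 0.57, against 0.20 in other myeloid cells. Mki67, the proliferation marker, was at 148 CPM in KO and 71.0 CPM in WT members. It was at 157 CPM in KO female-type (146 to 168), 124 CPM in KO male-type (96.5 to 157) and 74.9 CPM in WT male-type members (62.9 to 88.6). The spindle genes Nusap1 and Kifc1 and the histone genes H2ac8 and H1f4 were among the 15 highest ratios. Nusap1 was at 57.0 CPM in KO and 19.2 CPM in WT members, and at 30.3 and 27.8 CPM in other KO and WT myeloid cells, so the libraries differed more in members.

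Among the remaining named genes, some were widely spread over cells and others rested on a few. Col14a1, a collagen gene, was found in 47.8% of KO and 14.7% of WT members, at 82.8 and 27.8 CPM, and it was 91.4 CPM in KO female-type, 55.7 CPM in KO male-type and 29.0 CPM in WT male-type members. Bank1, a signalling adaptor known from B cells, was found in 20.3% of KO and 6.75% of WT members. Gdf15, a stress-induced cytokine, was at 53.0 CPM in KO and 17.3 CPM in WT members. Ctla2a, a protease inhibitor, was at 71.8 and 27.3 CPM in KO and WT members and at 19.3 and 18.5 CPM in the other myeloid cells. By sex type Ctla2a was at 69.8, 30.5 and 30.1 CPM, Gdf15 at 56.9, 30.5 and 18.0 CPM and Bank1 at 36.5, 23.4 and 11.5 CPM in KO female-type, KO male-type and WT male-type members. Ctla2a, like Nusap1 and Kifc1, differed between the libraries more in members than in other myeloid cells. Uevld, Zbtb45 and Cluap1 were the other genes with the widest such gap upward, on 4 to 11 UMIs each over the WT members. Tppp3, Ly6a and Ccl8 were among those with the widest gap downward.

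Some of the lowest ratios were carried by single cells. Retnla, a gene of alternative activation, had 148 UMIs over KO members and 655 over WT members, a log2 ratio of -3.53, and 88.9% of the WT UMIs came from 5 cells. Col3a1, a fibroblast collagen, had a ratio of -2.29, with 96.1% of its WT UMIs in 5 cells, and the ratio was 0.13 without the cells that held fibroblast, natural killer or neutrophil RNA. Gpnmb, a glycoprotein of lipid-laden macrophages, had 30 UMIs over KO members and 63 over WT members, and Ear2, a ribonuclease, 40 and 74. Of 12 alternative activation genes 7 were at least 1.5-fold lower in KO members and 1 at least 1.5-fold higher, with a median of -0.80, and Mgl2, a lectin found in many cells, was at 138 CPM in KO and 304 CPM in WT members, and at 116 CPM in KO female-type, 201 CPM in KO male-type and 296 CPM in WT male-type members.

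Among the lists of resident macrophage functions, most genes stayed within 1.5-fold between the libraries. Over all 9426 genes 3.58% were at least 1.5-fold higher in KO members and 2.92% at least 1.5-fold lower. The share of genes past that fold was larger in each list here except apoptotic cell clearance. Of 13 scavenger and uptake receptors measured, 1 was at least 1.5-fold higher in KO members and 2 lower, with a median of -0.0041. Mrc1 had 1402 CPM in KO and 1406 CPM in WT members. Of 13 genes of apoptotic cell clearance none passed 1.5-fold in either direction, with a median of 0.13. Of 21 lipid and lysosome genes 3 passed downward and 1 upward, which was Spp1, osteopontin, at 412 CPM in KO female-type, 658 CPM in KO male-type and 208 CPM in WT male-type members. Of 10 complement genes 3 were at least 1.5-fold lower in KO members and none higher, with a median of -0.37, and C3 was at 36.4 CPM in KO and 68.1 CPM in WT members, and by sex type at 22.7, 61.1 and 65.1 CPM in KO female-type, KO male-type and WT male-type members. Of 12 iron and heme genes 2 passed upward, Cd163 and Lcn2, and 94.7% of the Lcn2 UMIs in KO members came from 5 cells.

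Most regulators and receptors stayed within 1.5-fold, where 3.58% of all genes were higher past that fold in KO members and 2.92% lower. Of 18 macrophage transcription factors measured, Id3 and Cebpb were at least 1.5-fold higher in KO members and none lower, with a median of -0.048. Cebpb, a factor of inflammatory and emergency myeloid programmes, was at 113 CPM in KO and 71.9 CPM in WT members, and by sex type at 109.7 CPM in KO female-type, 131 CPM in KO male-type and 68.4 CPM in WT male-type members. Spi1 was at 297 CPM in KO and 322 CPM in WT members. Of 15 cytokine receptors Cx3cr1 alone passed 1.5-fold, at 787 CPM in KO and 491 CPM in WT members, and at 818, 649 and 488 CPM in KO female-type, KO male-type and WT male-type members. None of 19 immediate early and heat shock genes passed it in either direction, and their median was 0.042, so these genes, which respond to tissue dissociation, were near even. Among 11 monocyte genes Ly6c2 and Ms4a4c were at least 1.5-fold lower in KO members, with Ly6c2 at 8.56 CPM in KO and 24.5 CPM in WT members, and at 2.81, 21.6 and 25.7 CPM by sex type in the same order. Igf1 was at 84.5 CPM in KO and 118 CPM in WT members, and by sex type at 96.4, 26.9 and 119.8 CPM in KO female-type, KO male-type and WT male-type members.

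No gene of the RUNX family passed 1.5-fold between the libraries in members. Runx3 had a log2 ratio of KO over WT members of -0.039, with 138 CPM in KO (129 to 147) and 141 CPM in WT (126 to 159). Runx1, the main RUNX factor of macrophages, was at 695 CPM in KO and 713 CPM in WT members, and Cbfb, the shared partner subunit, at 139.5 and 94.9 CPM. Cbfb was at 146.6 CPM in KO female-type, 95.2 CPM in KO male-type and 99.0 CPM in WT male-type members, and Runx1 at 674, 706 and 725 CPM. By sex type Runx3 was at 131 CPM in KO female-type, 146 CPM in KO male-type and 151 CPM in WT male-type members, with overlapping intervals. Runx3 and Runx2 were lower in members than in other myeloid cells, Runx3 with log2 ratios of -0.35 in KO and -0.64 in WT. In mesenchymal cells, which should lack it, Runx3 was at 22.4 CPM in KO and 12.1 CPM in WT, so the level in members is above that background.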

How the data were processed

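The authors deposited unnormalized UMI counts per gene and barcode, 1 sparse matrix for each of the 2 libraries. Cell Ranger 8.0.1 made the count matrices, per the file headers, and the build mm10 and Seurat 3 are named in the submitters' processing notes. Cells were captured on a SeekOne MM microwell chip, per the labels' protocols. Cell Ranger is software of another capture platform, and which chemistry the matrices come from was not settled. Barcodes with at least 1000 UMIs were used, and the myeloid and member rules are given with the results. Members, gene lists and comparisons were chosen with earlier results of these data known. The split by sex type was among the alternatives, and the look at Lyz2 was added after its values were seen.

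UMIs were summed per library over the members or over the other myeloid cells and expressed per 1000000 (CPM). Ratios of KO over WT, or of members over other myeloid cells, are log2 after adding 5 CPM. Genes counted in a comparison had at least 50 UMIs in all and were found in at least 5% of the cells of 1 side, and genes of a list at least 20 UMIs. Named genes are the 15 highest and 15 lowest ratios of KO over WT, the 20 highest and 12 lowest of members over other myeloid cells by the weaker library, the 6 on each side whose KO over WT ratio differed most between members and other myeloid cells, members of the lists, and the RUNX genes. That ranking left out sex-linked markers, unnamed genes, antigen receptor, haemoglobin, ribosomal protein and mitochondrial genes. Intervals are 95%: exact Poisson for sums, exact binomial (Clopper-Pearson) for shares, and a log interval for ratios of shares. The fold comparison was tested on simulated counts, drawn per gene from summed rates and without uneven spread over cells. That test does not cover sums carried by a few cells, such as those of Cxcl3 and Col3a1. Doublets were kept, because Scrublet's automatic threshold marked 0.0187% of KO and 0.0232% of WT barcodes, and the highest 5% of its scores were left out as an alternative. Those marks do not measure how many doublets there were. In KO, 548 of 5357 barcodes held both Xist and Y-linked transcripts. The myeloid cells among them had a median of 18169.5 UMIs, against 10605 in KO female-type and 11365 in KO male-type myeloid cells. Whether they were doublets was not tested, and leaving them out was another alternative. Python 3.11.15, numpy 2.4.6, scipy 1.17.1, pandas 2.3.3, scanpy 1.11.5 and matplotlib 3.10.9 were used.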

Additional observations from a re-analysis of the deposited data

Results flagged for a closer look

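Xist, the transcript that silences an X chromosome in female cells, was at 1270 CPM in members of the library labelled KO and had no UMI in WT members. It stands out because it lies outside the comparisons of macrophage genes and marks most members of 1 library as cells of another sex than those of the other.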

How the results depend on the processing

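No paired analysis was possible because each genotype has 1 library. The share of myeloid cells that are members was 3.82 times as high in KO as in WT, and above 1 under each alternative that gave it. It moved to 5.99 with the top 5% and 2.47 with the top 20% of myeloid cells, 2.82 with the score on thinned cells, 2.81 with members chosen by Stab1, Pf4 and Gas6, 5.55 with KO female-type against WT male-type cells and 1.33 with male-type cells alone.

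Counts of genes followed the filters. Genes higher in KO members, 337 as reported, were 522 with the top 5%, 207 with the top 20%, 521 with the top 10% within each library, 594 with 1 CPM added, 70 with 20 CPM added, 157 with at least 200 UMIs per gene and 540 with cells weighted alike. Genes lower in KO members, 275 as reported, were 635 with the top 10% within each library, 439 in male-type cells alone, 111 with 20 CPM added and 152 with at least 200 UMIs. Genes higher in members than in other myeloid cells, 338 as reported, and those lower, 328, were 154 and 110 with the top 20%, 202 and 153 with the top 10% within each library, 109 and 91 with the thinned score, 198 and 162 with thinned sums and 170 and 204 with 20 CPM added. With Stab1, Pf4 and Gas6 as the rule 210 were higher.

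The ratio of KO over WT changed sign for Col3a1, to 0.13 with the top 5%, 0.024 with the top 20%, 0.075 with the thinned score, 2.58 with members by Stab1, Pf4 and Gas6 and 0.13 without cells with RNA of other cell types. It did so for Ear2 (0.11 with members by Stab1, Pf4 and Gas6), Uevld (-0.024 with thinned sums) and Inhba (-0.49 in male-type cells). The median of the interferon response list was 0.0057 in male-type cells, over the genes measured there. Ccl17 in WT changed to 0.14 with the top 20% and 0.37 with the top 10% within each library for members over other myeloid cells. Why these values changed was not tested. The choices of Stab1, Pf4 and Gas6, of KO female-type cells, of 3 or more rule UMIs and of leaving out cells with RNA of other cell types were chosen after seeing the data.

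The 51 KO male-type members limit every statement on that type, and a gene with few UMIs there can differ by counting alone.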
